A study of Caenorhabditis elegans with 17 samples.

Results

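The genes described here are the *spe* and *fer* genes of *Caenorhabditis elegans*, named for defects in spermatogenesis and fertilization. They were chosen by name, from the rows of the deposited table whose gene name begins with *spe-* or *fer-* and a digit. This gave 25 of 21459 genes, 24 named *spe* and 1 named *fer*. The methods of the study describe a filter on genes with few reads in total, which would make a minimum of RNA part of the choice. The filter could not be checked on raw reads. Taking all 17 libraries as entered, the mean normalized count times 17 came to less than 10 in 463 genes of the table (2.16%). The lowest product was 0.524, and no member was among these genes, since the lowest member reached 30.2. Which of the 17 libraries were entered is not given in the sources used here, so these products rest on that assumption.

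The RNA came from the oldest oocytes of the gonad arm, next to the spermatheca, which were cut free with a little gonadal sheath still attached. The mothers were moved at the L4 larval stage either to plates with 300 mM NaCl (8 libraries) or to control NGM plates (9 libraries) and were dissected on the first day of adulthood. In both groups the animals had been raised on standard NGM plates until the transfer. The labels name no strain, mutation or transgene for either group. The study states that the oocytes were dissected from wild-type animals, and N2 was its wild-type strain. The libraries were made with a stranded total RNA kit for small inputs, and each group holds 3 replicate numbers, each borne by more than 1 library, told apart by a letter. The study describes a replicate as the oocytes of a single animal, and how this relates to the lettered libraries is not given in the sources used here.

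Spermatogenesis in a hermaphrodite is over before oogenesis begins. The same germline first makes sperm, which are stored in the spermatheca, and then makes oocytes only. Sperm precursors pack major sperm protein (MSP), the cytoskeletal protein that drives sperm crawling, into fibrous bodies that are joined to vesicles known as membranous organelles. When a spermatid is activated, the membranous organelles fuse with the plasma membrane, and the motile sperm then binds and enters the oocyte at the spermatheca. The *spe* and *fer* genes act along this path and were found through mutants that make defective sperm, although a few of them also act in other cells.

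The question asked of the genes was how much of their RNA was present in the dissected oocytes, and in which members it lay. The 1 usable measure in the deposited table is the mean normalized count, which is a gene's read count after division by a library size factor, averaged over all libraries that the authors entered. It pools the 300 mM NaCl and control libraries. Each gene therefore has 1 value, with no value per library, no standard deviation and no test, and no difference between 300 mM NaCl and control is given. The depth of each library is unknown. Levels of different genes were compared as mean normalized count per kilobase (kb) of exon, since a longer transcript gives more reads.

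The members spread over the whole range from trace to abundant RNA. Their mean normalized counts ran from 1.77 (*spe-19*) to 795 (*spe-48*), a 448-fold range, and their median of 13.2 lay near the median of 12.3 over all genes of the table. All 25 members are protein-coding, and their median lay below that of the protein-coding genes of the table, which was 22.6. Of the 25 members, 14 had a mean of 10 or more (56%, against 52.6% of all genes), and 6 had a mean of 100 or more (24.0%, against 30.8% of all genes). The shares of protein-coding genes alone at these thresholds were not worked out. Between the lowest mean of the table and its lower quartile (2.39) lay 1 member, 11 lay between that and the median, 8 between the median and the upper quartile (193), and 5 above it. Together the members held 0.0725% of the summed means of the table, while they made up 0.117% of its genes.

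**Figure D1:**
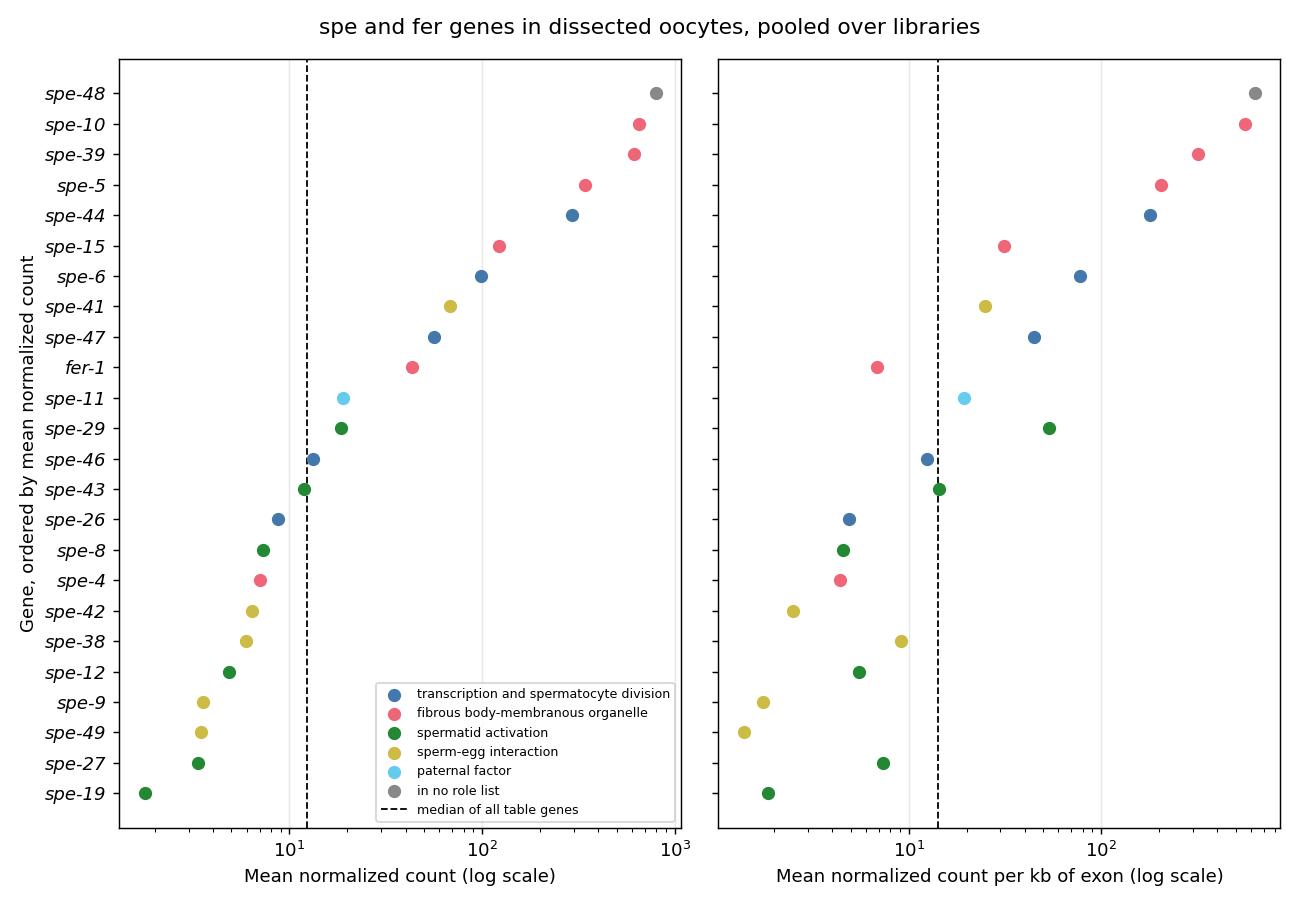
Each point is 1 of 24 of the *spe* and *fer* genes, ordered by mean normalized count on the y axis, with the mean normalized count (left) and the mean normalized count per kb of exon (right) on log x axes, pooled over all libraries and coloured by role list. The dashed line is the median of all table genes (12.3 on the left, 14.2 per kb on the right), and the 5 highest genes, from *spe-44* to *spe-48*, lie above all others drawn on the right, *spe-44* at 180 and *spe-6* at 77.3 per kb.

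A few members held most of the RNA. *spe-48*, *spe-10*, *spe-39*, *spe-5* and *spe-44* had the 5 highest levels, and these genes took 85.1% of the summed level per kb of all members. The share held by a like part of all genes of the table was not worked out. Whether such a share is particular to the members is therefore not known. The lowest of the 5 genes, *spe-44*, was 2.33 times the next member, *spe-6*, per kb. It was 1.42 times *spe-36*, a gene outside the rule that is described with the genes under sequence names. The same 5 genes were highest by mean normalized count, by count per kb of exon and by count per kb of coding sequence. Their mean normalized counts lay between percentiles 79.2 and 91.4 of the table, and *spe-48*, the highest, was in place 1856 among all genes.

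*spe-48* (WBGene00021771) lies on the reverse strand of chromosome I from 1950594 to 1958527 in the WBcel235 genome and encodes a protein of 337 residues. Its mean normalized count was 795, or 628 per kb of exon, the highest of the members on both scales. It has 5 annotated transcripts and shares no base with another annotated gene.

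The organelle genes included the next 3 members by level. *spe-10* (WBGene00004964, chromosome V from 10384250 to 10385740, forward strand) encodes a membrane protein with a DHHC zinc finger, the fold of palmitoyl transferases, and is needed to keep fibrous bodies and membranous organelles together. Its mean normalized count was 648, or 558 per kb. *spe-39* (WBGene00004975, chromosome V from 6785451 to 6787864, forward strand) encodes a partner of the vesicle tethering machinery that is also needed for endocytic traffic outside the germline. It had a mean normalized count of 615, or 316 per kb. Neither gene overlaps another annotated gene.

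*spe-5* (WBGene00004959, chromosome I from 5101665 to 5103476, reverse strand) encodes a B subunit of the vacuolar proton pump that acidifies vesicles. It reached a mean normalized count of 343, or 205 per kb. *spe-5* shares 68 exon bases with *ift-20* on the opposite strand (mean 4.88). It lies 105 bases from *chp-1* on its own strand, which had a higher mean of 506. The genome holds a second B subunit gene, *vha-12*, picked here after its value had been seen, and it stood at 603 per kb, 2.94 times *spe-5*. The 2 genes encode related proteins, and how the authors assigned reads that match both is not given in the sources used here. *spe-15*, which encodes a myosin VI that sorts cell contents between the spermatid and the residual body, had a mean normalized count of 122. Because it is long (3889 bases of exon), this was 31.3 per kb.

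*fer-1* and *spe-4* had the lowest levels per kb among these genes. *fer-1* (WBGene00001414, chromosome I from 8623012 to 8631202, reverse strand) encodes the founding member of the ferlins, which drives the fusion of membranous organelles with the plasma membrane. It is the longest member (6267 bases of exon, 2034 residues), and its mean normalized count of 43.1 came to 6.88 per kb. It was in 10th place by count and in 16th place per kb. *spe-4*, a presenilin-like protease of the membranous organelle, had a mean normalized count of 7.02, or 4.41 per kb. The 6 organelle genes ran from 4.41 to 558 per kb, with a median of 118, and 5 of the 6 had a mean of 10 or more. With *spe-18*, which is listed under a sequence name, the median of the 7 genes was 31.3 per kb.

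Of the genes listed by hand for sperm transcription, meiosis and spermatocyte division, *spe-44* was the highest. *spe-44* (WBGene00007732, chromosome IV from 12452063 to 12454215, reverse strand) encodes a SAND-domain transcription factor that turns on sperm genes in spermatocytes. It had a mean normalized count of 293, or 180 per kb, and overlaps no other annotated gene. *spe-6*, a kinase of the casein kinase 1 family that is needed for fibrous body assembly and also holds spermatids in check, stood at 98.0, or 77.3 per kb. It was counted in this list and not among the organelle genes or those of spermatid activation, so the medians of these lists depend on that choice. *spe-47*, which encodes a protein with an MSP domain and whose mutants activate spermatids too early, stood at 56.3, or 44.8 per kb. It was placed in this list and not in that of spermatid activation. *spe-46*, a further gene needed for spermatogenesis, had a mean normalized count of 13.2, the median of the members. *spe-26*, whose kelch-like protein binds actin and is needed for spermatocyte division, had a mean normalized count of 8.71, or 4.91 per kb. Of these 5 genes, 4 had a mean of 10 or more, and the median of the list was 44.8 per kb.

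Most genes listed for spermatid activation had low levels. This pathway, known as the SPE-8 group, receives the activating signal in hermaphrodites. *spe-8*, which encodes its non-receptor tyrosine kinase, had a mean normalized count of 7.27, or 4.58 per kb. The membrane proteins SPE-12 and SPE-19 and the soluble SPE-27 had mean normalized counts of 4.86 (*spe-12*), 1.77 (*spe-19*) and 3.36 (*spe-27*), which are 5.56, 1.86 and 7.39 per kb. *spe-43* stood at 11.9 (14.3 per kb). *spe-29*, which encodes the shortest protein of all members (66 residues), had a mean normalized count of 18.4, and its short exons (343 bases) made this 53.7 per kb, in 7th place among the members. The 6 genes had a median of 6.47 per kb, and 2 of them had a mean of 10 or more.

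Most genes for the meeting of sperm and egg also had low levels. *spe-9* (WBGene00004963, chromosome I from 11582743 to 11586069, reverse strand), which encodes a sperm surface protein with EGF-like repeats needed at fertilization, had a mean normalized count of 3.55, or 1.75 per kb. *spe-42* and *spe-49* encode related membrane proteins of similar length (774 and 772 residues) and had 6.42 and 3.48, or 2.52 and 1.40 per kb. The value of *spe-49* was the lowest per kb of all members. *spe-38*, which encodes a small membrane protein of 179 residues, had a mean normalized count of 5.96 (9.11 per kb). *spe-41* (chromosome III from 3439011 to 3444210), which encodes a TRPC calcium channel of sperm, stood above the others at 68.1, or 24.99 per kb. It was the only gene of the 6 with a mean of 10 or more, and their median was 2.81 per kb. With *spe-36* and *spe-51*, listed under sequence names, the median of the 8 genes was 6.10 per kb, and 3 of the 8 had a mean of 10 or more. *spe-11*, which encodes a sperm-supplied factor that the newly fertilized embryo needs, had a mean normalized count of 18.96 (19.4 per kb).

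A mean of 10 separated the members by 8.71 (*spe-26*) just below and 11.9 (*spe-43*) just above. The 11 members below 10 ran from 1.40 to 9.11 per kb, with a median of 4.41, and the 14 at or above it from 6.88 to 628 per kb, with a median of 49.2. The median of all genes fell between *spe-43* (11.9) and *spe-46* (13.2). Per kb the order of these 2 genes was the other way round, at 14.3 and 12.5 on either side of the median of all genes of 14.2. Whether neighbours in these orders differ could not be tested, as there is no spread over libraries.

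Marker genes gave a scale for these levels. All 11 oocyte markers were abundant, from 706 (*pie-1*) to 1744 (*pos-1*) per kb with a median of 1201, and none of the 25 members reached the lowest of them. RNA of marker genes of the gonadal sheath, spermatheca and intestine was present as well. The 8 gonadal sheath markers ran from 29.1 (*ceh-18*) to 1117 (*inx-8*) per kb with a median of 152, the 4 spermatheca markers from 64.8 to 253 with a median of 82.1, and the 6 intestine markers from 11.7 to 74.4 with a median of 30.7. The 5 highest members lay above the median of the sheath markers, and 12 of the 25 members lay below every intestine marker. In pooled RNA of this kind a small number of contaminating cells and a low level in every cell cannot be told apart.

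Sperm markers outside the *spe* and *fer* names were found for 16 of the 18 listed. Their median was 69.9 per kb, from 6.56 (*ssp-9*) to 933 (*try-5*), and 15 of the 16 had a mean of 10 or more. *try-5*, a protease known from male seminal fluid, stood far above the other 15, whose highest was *msp-40* at 277 per kb. The 10 MSP genes found ran from 39.8 to 277 per kb with a median of 88.5; they are near-identical copies, between which reads can be split. The sperm-specific phosphatase genes *gsp-3* and *gsp-4*, also close copies, stood at 25.8 and 26.8 per kb. Of the 25 members, 17 lay below every MSP gene found, and 3 (*spe-48*, *spe-10* and *spe-39*) lay above every sperm marker except *try-5*. The part of sperm RNA in the levels of the members was not tested.

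**Figure D2:**
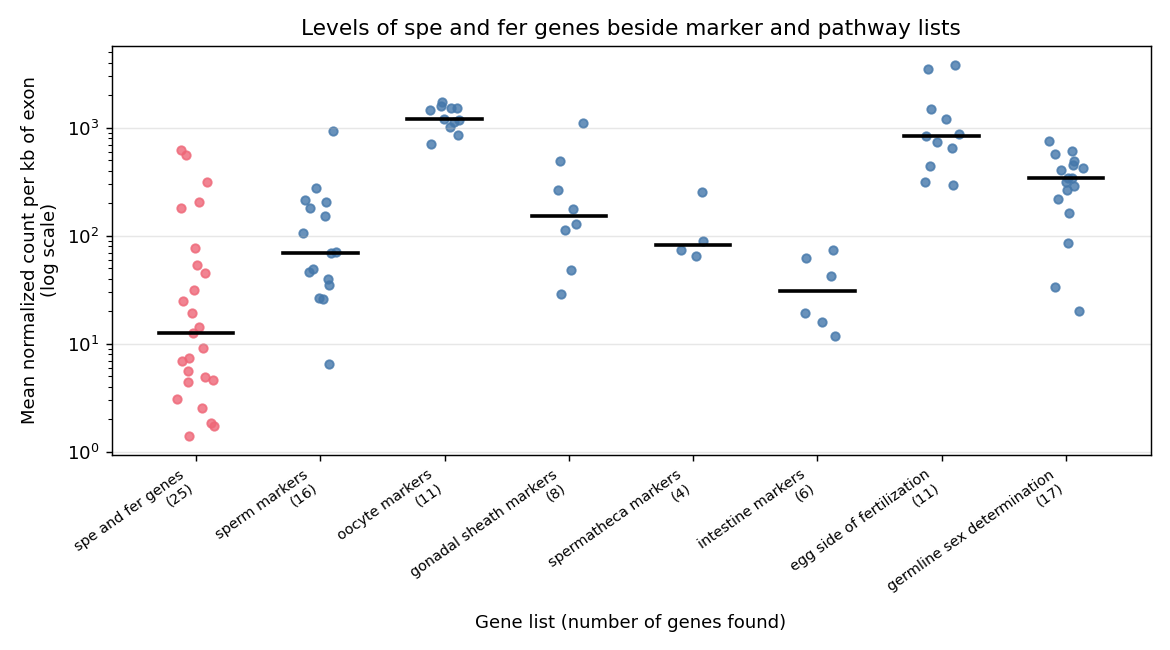
Each point is 1 gene, with its mean normalized count per kb of exon on a log y axis; the black bar is the median of each list, and the number of genes found is under its name. The *spe* and *fer* genes (red, median 12.5 per kb) cover a range from 1.40 to 628 per kb and all lie below the oocyte markers (median 1201 per kb).

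Genes listed for the egg side of fertilization and egg activation had far higher values. The lowest mean normalized count of these 11 genes was 702 (*egg-4*). Their median was 839 per kb, the value of *chs-1*, and 66.9 times the median of the members (12.5 per kb). The list is wider than the meeting of sperm and egg, so this ratio does not compare the sperm and egg sides of that step alone. The 11 genes include *egg-1* and *egg-2*, which encode LDL-receptor repeat proteins of the oocyte surface needed for sperm entry, at 1201 and 877 per kb. The inactive phosphatases EGG-4 and EGG-5, which hold back the kinase MBK-2 until fertilization, had 297 (*egg-4*) and 314 (*egg-5*) per kb, and *mbk-2* itself had 441. The 3 highest members, *spe-48*, *spe-10* and *spe-39*, were above the lowest gene of this list per kb, and only *spe-48* was above its lowest mean normalized count. The 2 lists were not compared by a test, because no library values exist.

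The positions of the members were uneven. Chromosome I held 12 of the 25 (48.0%), against 15.2% of all table genes with a position, chromosome IV held 6, chromosome V 5 and chromosome III 2. None lay on chromosome II or X, which held 17.3% and 13.9% of the table. *spe-18*, which stands under a sequence name and so outside the rule, does lie on chromosome II. The shares of protein-coding genes alone by chromosome were not worked out. On chromosome I, 7 of the 12 had a mean of 10 or more. The share of all chromosome I genes at that level was not worked out, but their median of 41.6 puts most of them there. The 5 highest members came from chromosomes I (*spe-48*, *spe-5*), V (*spe-10*, *spe-39*) and IV (*spe-44*). The median of all table genes also differed by chromosome, from 4.55 on V to 56.9 on III, with 41.6 on I and 8.65 on X.

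**Figure D3:**
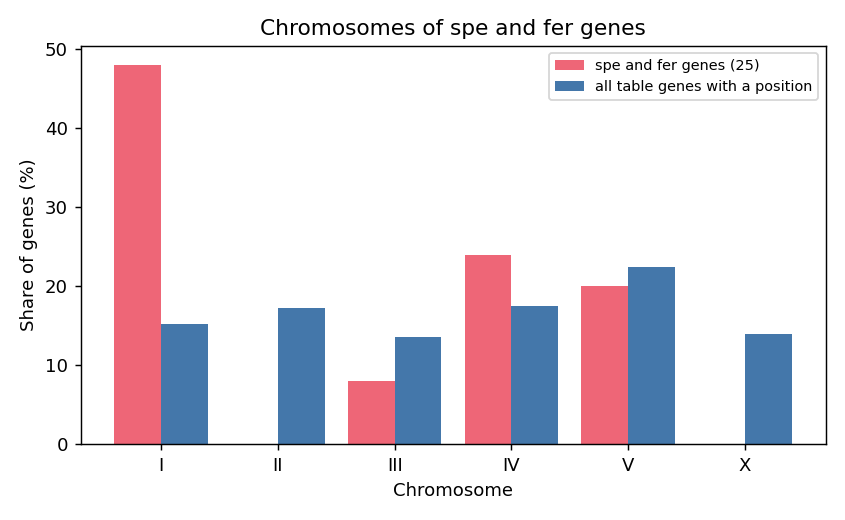
Bars give the share of genes (%) on each chromosome for the 25 *spe* and *fer* genes (red) and for all table genes with a position in the annotation (blue). Chromosome I holds 48.0% of the members and 15.2% of the table, and no member lies on II or X.

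All 25 members are annotated as protein-coding, as are 17713 genes of the table. Their exons summed to a median of 1510 bases (343 to 6267), against 1248 for all protein-coding genes, and their proteins had a median of 424 residues (66 to 2034), against 341. Both groups had a median of 6 exons, counted after merging those that overlap.

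Some members share bases with other genes. Of the 25 members, 13 overlap no annotated gene, and 12 overlap at least 1, of which 10 share exon bases. Most of the 29 overlapping genes are short non-coding RNAs, and 8 are protein-coding. For 3 members the overlapping gene had a higher mean than the member itself. *spe-38* (5.96) shares 58 bases, 8.85% of its exon length, with *impt-1* on the same strand, which had a mean of 272. *spe-29* (18.4) shares 117 bases, 34.1% of its exon length, with *gon-1* on the opposite strand (mean 44.8), and begins 1 base from the end of *F25H8.2* on its own strand (mean 975). *spe-26* (8.71) lies wholly inside the span of *R10H10.3* on the opposite strand (mean 24.4) with no exon base in common. Whether the counting used strand is not given in the sources used here, and the part of the neighbours' reads in these 3 levels was not tested.

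Some members also had a close neighbour on the same strand. Of the 25 members, 11 (44%) had a nearest protein-coding neighbour on the same strand less than 250 bases away, against 21.1% of all protein-coding genes of the table. For 7 (28%) that neighbour had the higher mean, against 10.6% of all protein-coding genes. Among them were *spe-5*, *spe-6*, *spe-12*, *spe-29*, *spe-42* and *spe-47*. *spe-42* (6.42), for example, ends 68 bases from *npp-22*, a nuclear pore gene with a mean of 1414. Some abundant neighbours lay beyond the limit of 250 bases. On 1 side, *spe-8* (7.27) had *mex-3* on the same strand at 6384 bases (mean 2291), and *spe-44* (293) had *dpy-26* on the same strand at 728 bases (mean 1248). *spe-39* (615) had *spn-4* at 548 bases (mean 2418), on the opposite strand.

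The annotation names 30 *spe* and *fer* genes, and 4 of them stand in the table under a sequence name, outside the rule used here. *spe-18*, *spe-36* and *spe-51* stand in the role lists by name, and *spe-54* in none. Counting the 4 genes together with the members was added after the members' values had been seen. *spe-36*, listed as *F40F11.4*, encodes a secreted sperm protein needed for fertilization and had a mean normalized count of 144, or 127 per kb. It shares 62 bases with *F12F6.1* on the opposite strand (mean 1305) and 68 bases with *F40F11.3* on its own (mean 138). *spe-18* (*F32A11.3*), needed for fibrous body assembly, stood at 30.97 (25.2 per kb). *spe-51* (*T22B11.1*), a second secreted sperm protein needed for fertilization, stood at 26.6 (16.8 per kb), and *spe-54* (*F55H12.5*) at 18.5 (18.6 per kb). All 4 had a mean of 10 or more, and with them 18 of 29 genes did. *spe-18* is on chromosome II, the only *spe* or *fer* gene of the table there.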

How the data were processed

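The authors aligned reads to WBcel235 and quantified genes with STARsolo (the submitters' processing notes name STAR and kallisto). Their methods drop genes with under 10 reads in total (not checkable here without raw counts), and the authors compared the groups with DESeq2. Tool versions, the strand setting and which of the 17 libraries were entered are not given in the sources used here. The mean normalized count deposited by the authors is a signal averaged over all libraries entered, after division by a size factor. The other 5 numeric columns hold the authors' own comparison (log2 fold change, its error, a statistic and p-values) and were not used. No column holds a single library.

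Positions and exon lengths came from Ensembl release 115 of WBcel235, which held 21399 of the 21459 identifiers and all 25 members. Exons were merged per gene. Gene lists for roles, cell types and the pathway were written by hand. The members and lists were chosen with earlier results of these data known. Values were named for every member except 1, which is counted but not reported by name here. They were also named for overlapping neighbours with a higher mean and for some of the close neighbours with a higher mean. Lists for sperm, oocyte, sheath, spermatheca and intestine markers, the egg side of fertilization and egg activation, germline sex determination and other sperm pathway genes were described by range and median. Alternatives changed the threshold, the reference genes and the length used. Length, percentile and merging steps were tested on simulated data. Python 3.11.15, numpy 2.4.6, pandas 2.3.3 and matplotlib 3.10.9 were used.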

Additional observations from a re-analysis of the deposited data

How the results depend on the processing

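No paired analysis was possible because no column of the deposited table holds a library or carries a replicate number, and leaving out replicates was not run for the same reason. Of the 14 members with a mean of 10 or more, a threshold of 5 gave 19 and one of 20 gave 10. The 13 members at or above the median of all genes became 10 against protein-coding genes, 10 against genes at 1 or more and 12 per kb of exon. The median mean normalized count of the members, 13.2, was 18.96 over the 13 that overlap no other gene, and 18.5 with the 4 genes listed under sequence names. The 5 highest members held 85.1% of the summed level per kb of exon, 85.0% per kb of coding sequence and 84.2% with no division by length. With the 4 genes under sequence names, an alternative added after seeing the data, the share was 78.4%. What moved the median was not tested, while the added genes raise the sum by construction. The depth of each library is unknown, so what it limits among the low members cannot be stated.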

Other observations

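The genes that decide between sperm and oocyte fate in the germline were present at levels far above most *spe* genes. All 17 listed genes of germline sex determination had a mean normalized count of 10 or more, and their median was 340 per kb of exon, from 20.2 (*fog-3*) to 755 (*gld-1*). *fog-3* and *fog-1* both promote the sperm fate, yet *fog-1* stood at 218 per kb. *fem-1*, *fem-2* and *fem-3*, which also promote male fate, had 423, 495 and 573 per kb. *her-1*, the masculinizing signal of males, had 33.6 per kb. Only 2 of the 25 *spe* and *fer* genes, *spe-48* and *spe-10*, lay above the median of this list.

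Other sperm pathway genes were found under 12 of the 14 names listed. The 2 others, *trp-3* and *hum-3*, are further names of *spe-41* and *spe-15*. The median of the 12 genes was 53.5 per kb, from 5.11 (*comp-1*, which acts in sperm competition) to 933 (*try-5*), and 11 of the 12 had a mean normalized count of 10 or more. *try-5*, *gsp-3* and *gsp-4* also stand among the sperm markers, so the lists are not separate. *ubc-25*, for which no role in sperm is given in the sources used here, had 753 per kb. *elt-1*, which encodes a GATA factor, had 58.6 per kb, and *zipt-7.1*, a zinc transporter of sperm activation, had 429. The membrane transporter gene *snf-10*, which acts in the activation of sperm by male seminal fluid, had 7.12 per kb.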
